A study of Mus musculus with 24 samples.

Results

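Mouse Dux, named Duxf3 in the gene annotation used here, and the Duxbl copies Duxbl1, Duxbl2 and Duxbl3 encode proteins with a pair of DNA-binding homeodomains. They were found in every library by their Ensembl gene identifiers, matched to these symbols in the GENCODE M21 annotation of GRCm38, and are 4 of the 55487 genes counted. Their RNA was measured in KH2 mouse embryonic stem cells, a line made for doxycycline-controlled transgenes, and compared with and without doxycycline (DOX), given for 16 hours, in 6 lines that all carry a DUX transgene under a DOX-responsive (TRE) promoter. A first set held a wild-type line (WT) and a line labelled DUXBL-KO. The second set, marked pLV2 in its titles, held WT pLV2 line 1, WT pLV2 line 2, a line labelled TRIM24-KO and a line labelled TRIM33-KO.

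DUX is a transcription factor made briefly at the 2-cell stage of the mouse embryo, when the embryo's own genome is first transcribed. It binds near genes of that stage, such as the Zscan4 family, and in the long terminal repeats of the retrovirus-like element MERVL, and raising it in embryonic stem cells moves them towards a 2-cell-like state. Duxbl is a related gene, is itself switched on by DUX, and is named in the title of the study as a factor for leaving that state. TRIM24, TRIM28 and TRIM33 belong to the TIF1 family of chromatin-binding corepressors.

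The homeobox is the stretch of coding sequence for a homeodomain, and its recognition helix lies in the major groove of DNA. The homeoboxes of Duxf3 and Duxbl1 are shown because they carry the relation between both genes and the differences that let reads tell Dux from Duxbl. Each runs for 180 bases, 5′ to 3′, from the GENCODE M21 transcripts of GRCm38, and capitals mark the 18 bases that encode the recognition helix core, starting at residue 48 of the homeodomain.
Duxf3 first homeobox: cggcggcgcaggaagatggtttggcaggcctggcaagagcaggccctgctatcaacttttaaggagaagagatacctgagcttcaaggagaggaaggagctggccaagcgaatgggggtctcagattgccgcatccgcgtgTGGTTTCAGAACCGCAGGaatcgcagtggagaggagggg
Duxbl1 first homeobox: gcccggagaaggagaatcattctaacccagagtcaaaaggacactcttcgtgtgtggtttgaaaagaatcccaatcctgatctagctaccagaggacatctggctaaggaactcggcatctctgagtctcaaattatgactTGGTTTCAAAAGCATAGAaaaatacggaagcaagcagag
Duxf3 second homeobox: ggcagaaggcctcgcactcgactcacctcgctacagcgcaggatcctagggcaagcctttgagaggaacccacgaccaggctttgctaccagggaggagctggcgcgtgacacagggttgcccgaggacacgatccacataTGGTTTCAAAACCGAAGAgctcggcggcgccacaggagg
Duxbl1 second homeobox: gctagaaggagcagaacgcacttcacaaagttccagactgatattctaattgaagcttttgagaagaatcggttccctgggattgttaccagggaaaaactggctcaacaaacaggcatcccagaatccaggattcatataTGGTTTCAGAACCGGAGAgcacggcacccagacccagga

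The first homeoboxes of Duxf3 and Duxbl1 had 43.9% identical bases and encoded the same residue at 17 of 60 positions. The second homeoboxes were closer, with 61.1% identical bases and 34 of 60 shared residues. Within the capitals, counted from 1 at the 5′ end and with the Duxf3 base first, the first homeoboxes differed by G9A, C12G, G14A, C15T and G18A, and the second by A9G and A15G. The coding sequences of Duxbl1, Duxbl2 and Duxbl3 were identical over all 1050 bases, so their homeoboxes are the same and are printed once.

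The positions explain how well each gene can be counted. Duxf3 lies on chromosome 10 at 58229979 to 58232675, minus strand, in an array of related copies. Duxbl1, Duxbl2 and Duxbl3 lie on chromosome 14 on the plus strand, at 25978577 to 25990088, 26118349 to 26129763 and 26257962 to 26269436. Of all 75-base windows in its annotated exons, 75 bases being the read length, Duxbl2 shared 100% with another Duxbl copy, Duxbl3 93.5% and Duxbl1 90.4%. Duxf3 shared none with Duxbl1, and 34.1% with other genes of its own array. The sum of the 3 Duxbl rows is therefore given beside each copy, and the split between copies is uncertain.

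Of the 4 genes, 1 had an entry in the RefSeq promoter table used here, Duxf3. Its 250 bases before the RefSeq start (GRCm38.p6, chr10:58233090-58233339, minus strand) are shown because DUX recognises the letters GATTNAATC, which were searched on both strands and are in capitals where found.
Duxf3 promoter: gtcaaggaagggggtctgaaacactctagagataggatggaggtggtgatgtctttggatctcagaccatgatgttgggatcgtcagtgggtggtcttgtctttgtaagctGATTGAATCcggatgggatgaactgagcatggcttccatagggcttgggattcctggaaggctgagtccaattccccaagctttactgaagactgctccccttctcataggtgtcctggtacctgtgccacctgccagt
The match lay 139 to 131 bases before the start. Among 32851 mouse promoters, taken from 250 bases before to 50 after the start, 0.268% held GATTNAATC. The other motif searched, AATNNAATC, was in 2.91% of them and not in these letters of Duxf3. A match is a description of the letters and no measure of binding.

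There were 24 libraries, 2 for each of 12 groups, and the transgene, the line and the DOX treatment were taken from their titles. The meaning of pLV2 is not given, and the labels tie neither WT pLV2 line to a knockout. Each line is 1 line, and nothing says that its replicates came from separate cultures, so p-values measure only the spread between these libraries, which may be technical. The titles and the treatment tags disagree in 8 pLV2 libraries, and titles were followed. Duxf3 counts went with the titles. The DOX effect on Duxf3 is itself read under those titles, so this is no separate support for them.

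Gene counts summed to 11784696 to 19136869 per library. CPM is a count scaled to the effective library size, 7868783 to 20823203 here, so that 3 counts, the limit that a count of 0 allows, equal 0.144 to 0.381 CPM. Summed CPM of 8 embryonic stem cell markers was 3135 to 4398 in every library, with none at 0 in any group. The growth protocol allows a feeder layer of fibroblasts, and the sum of 10 fibroblast markers was 14.3 to 44.7 CPM, with 2 to 5 of the 10 at 0 in each group. That sum was higher with DOX in 5 lines without overlap, and in DUXBL-KO its libraries overlapped (at most 24.3 without DOX, at most 30.7 with), and its part in the DOX results was not tested. The RNA gene CT010467.1 took 30.4% of gene counts in TRIM24-KO with DOX replicate 2 and 12.9% in TRIM33-KO with DOX replicate 2, and at most 1.30% elsewhere. In bulk RNA, fewer cells of a type and less RNA per cell cannot be told apart.

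The Duxbl rows are also the check of the DUXBL-KO label. With DOX, the summed Duxbl copies reached 180 and 120 counts in DUXBL-KO, against 172 and 71 counts for WT, and both ranges overlapped. Gene counts do not show which part of a gene was deleted, so these libraries are called by their label. Trim24 averaged 130 CPM in TRIM24-KO without DOX, against 97.4 and 181 CPM in WT pLV2 lines 1 and 2. Trim33 averaged 20.8 CPM in TRIM33-KO without DOX, against 138 and 117 CPM in the same WT lines, an edgeR log2 difference of -2.61 (adjusted p = 5.96e-13). The difference for Trim24 in TRIM24-KO was -0.03 (adjusted p = 0.828).

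Duxf3, the gene for DUX itself, was nearly silent without DOX and rose with DOX in all 6 lines. Without DOX it had 0 counts in 9 of 12 libraries, 1 count in each WT pLV2 line 1 library and 2 counts in TRIM33-KO replicate 2. Given DOX, the WT libraries held 23 and 20 counts, and those of DUXBL-KO 75 and 52. Of the pLV2 lines given DOX, TRIM33-KO reached 78 and 54 counts, line 1 reached 95 and 110, TRIM24-KO reached 38 and 24, and line 2 reached 58 and 53. No library with DOX came near any library without it. The tables do not show whether these reads came from the transgene or from the gene on chromosome 10.

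Set against 3 counts per library, DOX raised Duxf3 at least 24.1-fold in DUXBL-KO, at least 25.5-fold in WT pLV2 line 2, at least 17.5-fold in TRIM24-KO and at least 5.96-fold in WT. Where 2 counts were present without DOX, the ratio was 117 in WT pLV2 line 1 (95% counting interval 32.0 to 974) and 132 in TRIM33-KO (35.8 to 1101); intervals and limits cover counting error only. The edgeR quasi-likelihood test with Benjamini-Hochberg adjustment over all genes called each rise, with an adjusted p of 0.0331 in WT, 0.00512 in DUXBL-KO, 3.62e-08 and 8.10e-08 in WT pLV2 lines 1 and 2, 6.25e-07 in TRIM24-KO and 1.62e-08 in TRIM33-KO. In WT the call was lost when only the 4 WT libraries were fitted (adjusted p = 0.0665) and when any of those 4 was left out (0.058 to 0.158). Duxf3 passed the filter on low counts only through its libraries with DOX, so these p-values describe the rise and are no separate support for it beside the counts.

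For background, the share of tested genes called higher with DOX was 2.86% in WT, 4.52% in DUXBL-KO, 9.96% in WT pLV2 line 1, 12.7% in line 2, 11.4% in TRIM24-KO and 16.4% in TRIM33-KO. The share called lower was 0.116%, 0.399%, 6.12%, 13.8%, 4.88% and 20% in the same order. With the replicate number as a block, the genes called in either direction rose from 538 to 929 in WT and from 889 to 1536 in DUXBL-KO. Median-of-ratios scaling changed the split in WT pLV2 line 2 from 2289 higher and 2499 lower to 2598 and 1753, and in TRIM33-KO from 2961 and 3611 to 3480 and 2659. Of the 4 genes, Duxbl2 fell under the filter and the other 3 were tested.

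The level of Duxf3 with DOX differed between lines. In the pLV2 set it averaged 7.78 ± 0.77 CPM (SD, n = 2) in line 1, 6.39 ± 0.76 in TRIM33-KO, 4.19 ± 0.34 in line 2 and 3.10 ± 0.07 in TRIM24-KO, and in that order the libraries of neighbouring lines did not overlap. WT line 2 was below line 1 by an edgeR log2 difference of -0.89 ± 0.24 (SE; adjusted p = 0.00773), in a contrast where 39.9% of genes were called. That call was lost without line 1 replicate 2 (adjusted p = 0.0682) or line 2 replicate 2 (0.0549). In the first set Duxf3 averaged 3.88 ± 1.48 CPM in DUXBL-KO and 1.24 ± 0.20 in WT, a log2 difference of 1.64 ± 0.41 that edgeR did not call (adjusted p = 0.341), where 0.072% of genes were called (13; 459 with the replicate block and 155 with DESeq2).

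**Figure D1:**
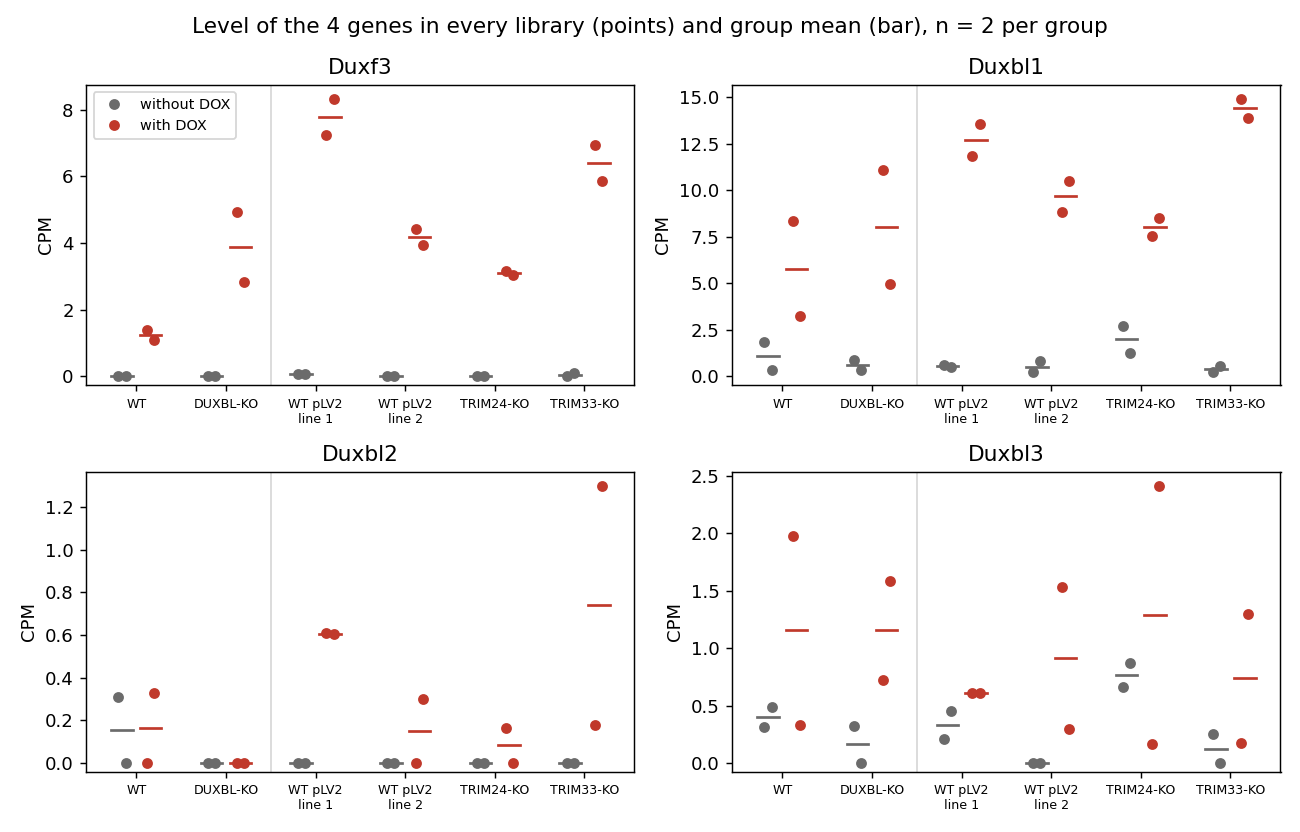
Level of Duxf3, Duxbl1, Duxbl2 and Duxbl3 in CPM (y axis) in each library (points) of the 6 lines (x axis), without and with DOX, with a bar at the mean of 2 libraries. Duxf3 lies at or next to 0 without DOX and between 1.09 and 8.32 CPM with DOX, and Duxbl1 holds most of the Duxbl counts.

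Duxbl1, the copy that took most Duxbl counts, had 5 to 45 counts in the libraries without DOX and 59 to 179 in those with DOX. It had 24 and 6 counts without and 139 and 59 with DOX in WT, and 16 and 6 against 169 and 91 in DUXBL-KO. In WT pLV2 line 1 it had 9 and 8 against 156 and 179, and in line 2 it had 5 and 13 against 116 and 141. In each of these lines the groups stood apart.

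TRIM24-KO had 45 and 22 counts of Duxbl1 without DOX and 91 and 67 with it. TRIM33-KO went from 5 and 12 counts to 168 and 128. In both lines the libraries without and with DOX stood apart.

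On the log2 scale edgeR put the DOX effect on Duxbl1 at 5.09 ± 0.35 (SE) in TRIM33-KO, 4.47 ± 0.36 in WT pLV2 line 1, 4.28 ± 0.36 in line 2 and 2.00 ± 0.30 in TRIM24-KO. Duxbl1 rose in all 4, with adjusted p-values of 5.19e-09, 7.03e-08, 9.14e-08 and 1.29e-04. The sizes rested in part on single libraries without DOX: without replicate 1 or replicate 2 of that group the effect was 3.62 or 5.31 in line 2, 2.63 or 1.53 in TRIM24-KO and 4.64 or 5.83 in TRIM33-KO, so line 2 and TRIM33-KO had no fixed order. In the first set the effect was 3.74 ± 0.85 in DUXBL-KO (adjusted p = 0.0546) and 2.43 ± 0.81 in WT (adjusted p = 0.281), neither of which passed. A fit blocked on replicate number called both, at 3.79 (adjusted p = 1.76e-04) and 2.45 (0.00236). Leaving out each library of the line in turn moved the unblocked effect from 3.05 to 4.59 in DUXBL-KO and from 1.61 to 3.95 in WT; the extremes came without replicate 1 with DOX and without replicate 1 lacking DOX, in both lines. The biological coefficient of variation was 17.6% in the first set and 8.73% in the pLV2 set, so smaller differences could be called in the latter. Both values come from the fit without the block, so they also hold any spread shared by libraries of the same replicate number.

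The summed Duxbl copies moved like Duxbl1. In WT they had 32 and 14 counts without DOX and 172 and 71 with it, and in DUXBL-KO 22 and 6 against 180 and 120. In the pLV2 lines they had 10 and 12 against 172 and 152 in TRIM33-KO, 12 and 15 against 172 and 195 in line 1, 5 and 13 against 136 and 149 in line 2, and 56 and 37 against 95 and 86 in TRIM24-KO. The groups did not overlap in any line.

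The edgeR log2 effect of DOX on the sum was 3.94 ± 0.29 in WT pLV2 line 1, 4.43 ± 0.32 in line 2, 1.75 ± 0.25 in TRIM24-KO and 4.86 ± 0.30 in TRIM33-KO, each a rise with an adjusted p of at most 7.32e-05. In DUXBL-KO the sum rose by 3.59 ± 0.77 (adjusted p = 0.0438), a call lost when any of its 4 libraries was left out (adjusted p 0.0723 to 0.23). In WT it was 2.12 ± 0.73 (adjusted p = 0.296), and 2.09 with the replicate number as a block, which was called (edgeR adjusted p = 0.00341). The unblocked WT value was 1.27 without replicate 1 with DOX and 3.04 without replicate 1 lacking DOX. Without replicate 1 or replicate 2 lacking DOX, the sum in line 2 was 3.77 or 5.46.

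**Figure D2:**
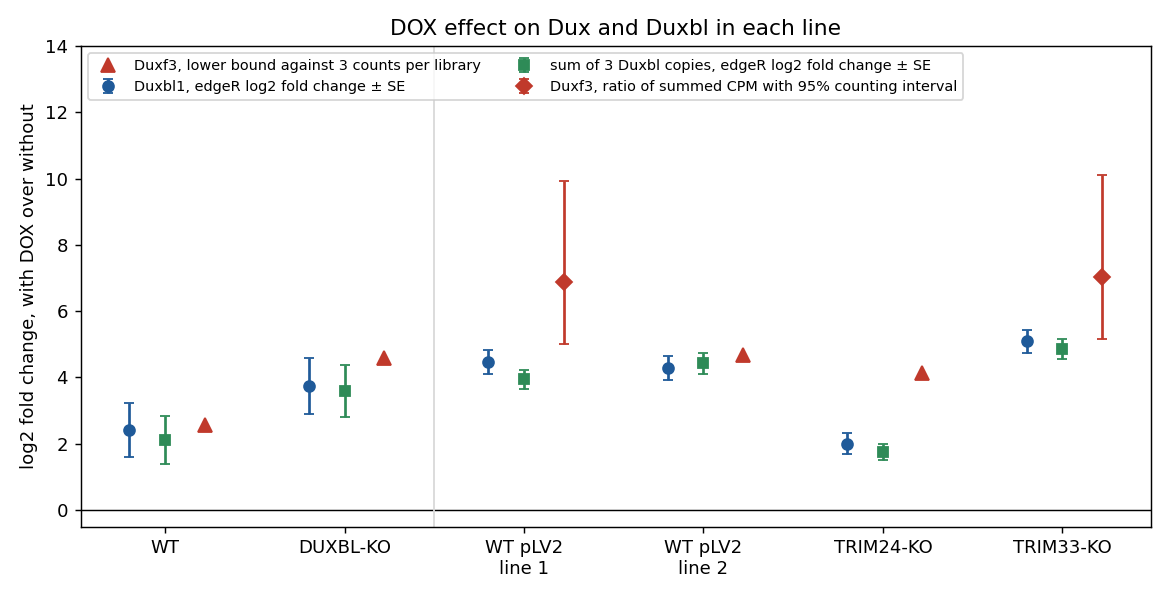
Log2 fold change with DOX (y axis) in each line (x axis): circles and squares are the edgeR values of Duxbl1 and of the summed Duxbl copies with bars of 1 SE, triangles the lower bound of Duxf3 where it had no count without DOX, and diamonds its ratio with a 95% counting interval. For Duxbl, TRIM24-KO is the lowest of the pLV2 lines at 2.00 and 1.75; TRIM33-KO lies at 5.09 and 4.86, and line 2, at 4.28 and 4.43, can pass it when 1 library is left out.

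Duxbl2 and Duxbl3 had few counts, and near-identical sequence lets reads pass between them. Duxbl2 was at 0 in 16 of 24 libraries and never exceeded 12 counts. It had 8 and 8 counts with DOX and none without in WT pLV2 line 1, which is at least 3.04-fold, and 2 and 12 with none without in TRIM33-KO, at least 5.04-fold. Duxbl3 never exceeded 33 counts. With the filter on low counts it was called in 1 line, WT pLV2 line 2, with 20 and 4 counts against 0 and 0, at least 5.55-fold (edgeR adjusted p = 0.0248), and that call was lost without line 2 with DOX replicate 1 (adjusted p = 0.243), without either library lacking DOX (0.0802 and 0.105), or with all 24 libraries in 1 fit (0.0591). All counts of Duxbl3 in line 2 came from libraries with DOX, so its p-value there is no separate support for a rise beside the counts. With no filter, Duxbl3 was also called in DUXBL-KO (log2 2.81, edgeR adjusted p = 3.74e-04) and TRIM33-KO (2.39, 0.0086). Duxbl2 was called with no filter in WT pLV2 line 1 (log2 6.18, edgeR adjusted p = 0.00437) and TRIM33-KO (6.37, 3.95e-04). The sizes for Duxbl2 depend on the prior count. The DOX effect on Duxbl3 is compared between lines next. For Duxbl3, the DOX effect in line 2 against line 1 differed by 5.89 ± 2.74. This was not called (edgeR interaction, adjusted p = 0.646) except with no filter (0.0206). Its size depends on the prior count, since line 2 had no count of Duxbl3 without DOX.

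The split between copies was uneven and in part identical from row to row. Duxbl2 and Duxbl3 had the same count, above 0, in 8 libraries, 7 of them with DOX, and Duxbl2 was never above Duxbl3. Duxbl1 had the highest count of the 3 copies in 22 of 24 libraries. Over all libraries with DOX it held 88.5% of Duxbl counts (1504 of 1700), and over those without DOX 73.1% (171 of 234), of which TRIM24-KO gave 93 of the 234. Single libraries ran from 75.8% to 97.7% with DOX and from 42.9% to 100% without, so the pooled shares are a description and do not set DOX apart. Neighbours repeated along the same stretch behaved alike: Tmem254a, Tmem254b and Tmem254c had equal counts above 0 in 10 libraries and Tmem254a alone had counts in 13, and Cphx1, Cphx2 and Cphx3, themselves homeobox genes, were equal in 12.

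**Figure D3:**
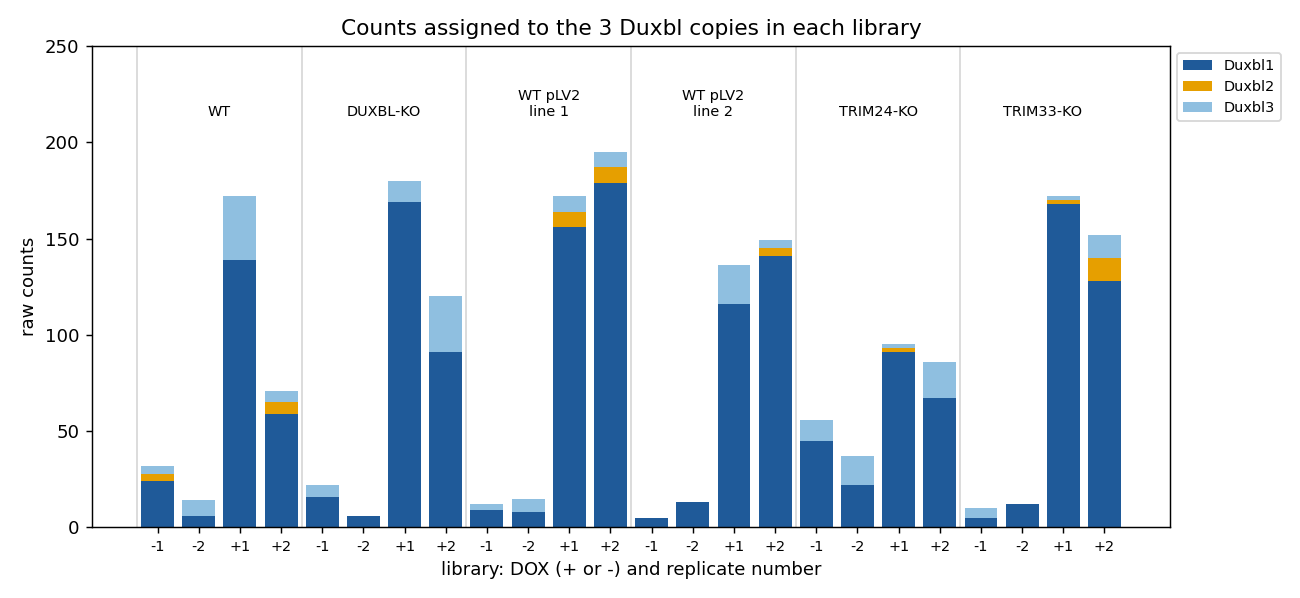
Raw counts (y axis) of the 3 Duxbl copies, stacked by colour, in each library (x axis, DOX absent or present and replicate number) of the 6 lines. Duxbl1 has the highest count in 22 of 24 libraries, and Duxbl2 is at 0 in 16.

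Per kilobase of annotated exon, the summed Duxbl copies with DOX stood at 1.29 to 1.65 times the level of Duxf3 in 4 lines, just below it in WT pLV2 line 1 and at 3.13 times in WT, where replicate 1 gave 4.07 and replicate 2 gave 1.93. The level of Duxf3 was 2.88 CPM per kb in WT pLV2 line 1, and that of the Duxbl sum was 2.81. In line 2 the levels were 1.55 and 2.17, in TRIM24-KO 1.15 and 1.90, in TRIM33-KO 2.37 and 3.21, and in DUXBL-KO 1.44 and 1.86 CPM per kb. In WT they were 0.459 for Duxf3 and 1.43 for Duxbl. These levels rest on the union of annotated exons. Duxbl1 alone, by the same length, was below Duxf3 in line 1 (2.66 against 2.88 CPM per kb) and above it in the other 5 lines. With the longest transcript as the length it was above Duxf3 in all 6, with 5.61 against 3.84 in line 1, 4.28 against 2.07 in line 2, 3.54 against 1.53 in TRIM24-KO, 6.36 against 3.16 in TRIM33-KO, 3.55 against 1.92 in DUXBL-KO and 2.55 against 0.611 in WT, so that the order in line 1 depended on the length used.

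TRIM24-KO differed from the WT pLV2 lines in Duxbl before DOX was given. Without DOX the summed copies stood at 3.36 and 2.15 CPM in TRIM24-KO, against 0.823 and 0.965 in line 1 and 0.242 and 0.797 in line 2, with no overlap. The log2 difference was 2.04 ± 0.30 (edgeR adjusted p = 4.02e-05), and for Duxbl1 alone 1.90 ± 0.38 (adjusted p = 6.36e-04). Over all alternatives the Duxbl1 value ran from 1.26, without TRIM24-KO replicate 1 (edgeR adjusted p = 0.046), to 2.44, without line 2 replicate 2, and the sum from 1.61 to 2.58, each still called. Duxbl3, with 11 and 15 counts in TRIM24-KO, 3 and 7 in line 1 and none in line 2, was also called, at 3.85 ± 1.36 (edgeR adjusted p = 0.0319), but not against line 1 alone (1.19, adjusted p = 0.425), with all 24 libraries in 1 fit (0.0641), or without line 1 replicate 1 (0.0605), either TRIM24-KO library (0.0714 and 0.112) or either line 2 library (0.0758 and 0.0584). In that contrast 43.2% of all genes were called, so a call by itself is common there. Tested neighbours of Duxbl were also called higher there by edgeR. These were Cphx2 (3.85, adjusted p = 8.27e-05), Plac9b (2.68, 0.0013), 4933413J09Rik (2.00, 5.48e-04), Tmem254a (1.65, 0.0155), Zcchc24 (0.56), Anxa11 (0.41) and Slmap (0.37). Tmem254b, Tmem254c, Plac9a and Gm34059 were not called. Whether these differences and that of Duxbl have 1 origin was not tested.

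With DOX, Duxf3 was lower in TRIM24-KO than in the WT pLV2 lines by a log2 difference of -0.88 ± 0.24 (edgeR adjusted p = 0.00818), in a contrast that called 40.6% of genes. With line 2 as the sole reference it was -0.43 (adjusted p = 0.211), with line 1 as the sole reference -1.32 (adjusted p = 0.00119), and without TRIM24-KO with DOX replicate 1 the adjusted p was 0.0591. The summed Duxbl copies, whose TRIM24-KO libraries then overlapped those of line 2, were not called, at -0.40 ± 0.19 (interval of 1.96 SE from -0.78 to -0.03; adjusted p = 0.107), nor was Duxbl1, at -0.48 ± 0.23 (adjusted p = 0.104).

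The difference in DOX effect between TRIM24-KO and the WT pLV2 lines was -2.44 ± 0.36 for the summed copies (edgeR interaction, adjusted p = 0.00506) and -2.37 ± 0.44 for Duxbl1 (adjusted p = 0.0261). This interaction was called for 0.387% of genes. The call for the sum was lost when TRIM24-KO without DOX replicate 1 was left out (-2.08, adjusted p = 0.0689), and all 24 libraries in 1 fit gave -2.49 with an adjusted p of 0.504. For Duxbl1 the call was lost against either WT line alone (adjusted p 0.0857 and 0.0791), with the compared groups alone (0.0561) and with all 24 libraries (0.736). It was also lost without either line 1 library lacking DOX (0.0797 and 0.0976), line 1 with DOX replicate 2 (0.0558), or replicate 1 of TRIM24-KO without DOX (0.316) or with it (0.0513).

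The contrasts of TRIM33-KO, DUXBL-KO and the second WT line were fitted on all libraries of their set. With the low-count filter, edgeR called no difference in Duxbl1, Duxbl3 or the sum in these contrasts. Duxbl3 in line 2 against line 1 was called under other settings. Without DOX these were no filter (-5.29, edgeR adjusted p = 0.00136) and DESeq2 (-5.03, adjusted p = 0.049). Its interaction was called with no filter (5.87, edgeR adjusted p = 0.0206). For the summed copies, TRIM33-KO against the WT pLV2 lines was 0.37 ± 0.18 with DOX (interval 0.03 to 0.72; adjusted p = 0.131), -0.30 ± 0.42 without (-1.11 to 0.52; 0.669), and 0.67 ± 0.45 for the interaction (-0.21 to 1.56; 0.672); 26.6%, 23.6% and 0.553% of genes were called in these contrasts. Duxf3 there was 0.17 ± 0.21 with DOX (-0.24 to 0.57; adjusted p = 0.593), and turned to -0.28 against line 1 alone. Duxbl1 was 0.38 ± 0.20 with DOX, -0.34 ± 0.51 without and 0.71 ± 0.55 for the interaction, with adjusted p-values of 0.19, 0.704 and 0.727.

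DUXBL-KO against WT gave, for the summed copies, 0.37 ± 0.64 with DOX (interval -0.88 to 1.62; adjusted p = 0.878), -1.10 ± 0.85 without (-2.76 to 0.56; 0.762) and 1.47 ± 1.06 for the interaction (-0.60 to 3.55; 1.00). For Duxbl1 the values were 0.47 ± 0.69, -0.84 ± 0.97 and 1.32 ± 1.19, with adjusted p-values of 0.852, 0.841 and 1.00. Without DOX 0.0388% of genes were called (7; 402 with the replicate block and 153 with DESeq2). In this contrast these shares thus rest on the model used. EdgeR called 0 (0.0%) for the interaction, with 97 at an unadjusted p under 0.05, and DESeq2 called 1. These intervals, from the fit without the replicate block, are wide, and do not show that both lines were alike.

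WT pLV2 line 2 against line 1 was -0.37 ± 0.20 for the summed copies with DOX (interval -0.77 to 0.03; adjusted p = 0.16), -0.86 ± 0.48 without (0.178) and 0.49 ± 0.52 for the interaction (0.885). Without line 2 lacking DOX replicate 2, the difference without DOX was called (-1.82, edgeR adjusted p = 0.0247), and over all leave-outs it ran from -1.82 to -0.13. Duxbl1 was -0.39 ± 0.24, -0.20 ± 0.59 and -0.19 ± 0.66, none called. Without DOX 38.1% of genes were called between these WT lines and for the interaction 0.243%, so lines of the same genotype label differed widely elsewhere.

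Of 27 genes near the Duxbl copies, 9 were tested in the first set and 11 in the pLV2 set. With DOX, 1 of the 9 was called higher in WT and in DUXBL-KO, where 2.86% and 4.52% of all genes were called higher. In each pLV2 line 2 of the 11 were called higher, where 9.96% to 16.4% of all genes were. These counts are no result about the neighbours as a group. Gm34059, a long intergenic non-coding RNA gene on the minus strand, rose in all 6 lines. Its lowest coordinate lies 336.43 kb from the start of Duxbl1. Its summed counts went from 8 to 103 in WT, 7 to 229 in DUXBL-KO, 15 to 166 in WT pLV2 line 1, 2 to 204 in line 2, 7 to 188 in TRIM24-KO and 5 to 211 in TRIM33-KO. Zcchc24, a zinc finger gene, rose in the 4 pLV2 lines, by log2 0.80, 1.25, 0.65 and 2.15 in lines 1 and 2, TRIM24-KO and TRIM33-KO, and was not called in WT (0.74) or DUXBL-KO (0.82). No neighbour of Duxbl was called lower, although Plac9b had 24 and 18 counts without and 5 and 8 with DOX in DUXBL-KO (log2 -1.53, edgeR adjusted p = 0.0868). Cphx2 had 51 and 34 against 10 and 5 in TRIM24-KO (-1.74, adjusted p = 0.0751).

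Near Duxf3, 4 of 8 genes were tested. AW822073, which shares 33.5% of its 75-base windows with Duxf3 and so cannot be fully told apart from it, was called higher in 5 lines. AW822073 passed the filter on low counts only through its libraries with DOX. Its calls and p-values thus describe the rise and are no separate support for it beside the counts. It had 1 and 2 counts without and 70 and 61 with DOX in WT pLV2 line 1, a ratio of 49.9 (counting interval 16.7 to 245), and 0 and 0 against 28 and 14 in WT, where edgeR did not call it (adjusted p = 0.0582); with the replicate block 1 of the 4 genes was called in WT. Ranbp2, a nuclear pore gene, fell by 0.18 on the log2 scale in TRIM33-KO (edgeR adjusted p = 0.0373), where the median of all genes was -0.09, and was at -0.17 in line 2 (adjusted p = 0.0623). With median-of-ratios scaling, or without TRIM33-KO with DOX replicate 2, 1 of the 4 neighbours was called in TRIM33-KO instead of 2. Gcc2 and Lims1 were not called in any line. Over all tested genes, 16.4% were called higher and 20% lower in TRIM33-KO. The replicate block called 929 of 18060 genes in WT. The counts of called genes near Duxf3 are therefore no result about these neighbours as a group.

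**Figure D4:**
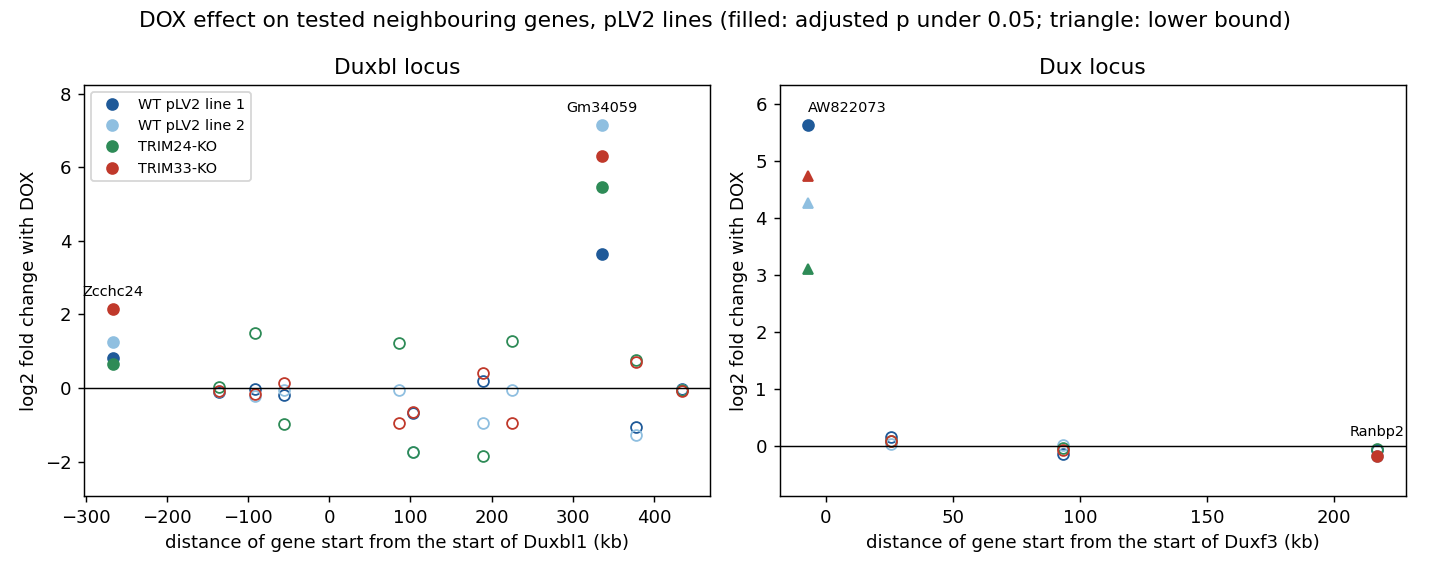
Log2 fold change with DOX (y axis) of tested genes by the distance of their start from that of Duxbl1 or Duxf3 (x axis, kb) in the 4 pLV2 lines. Start here means the lowest coordinate on either strand. Filled points passed the test and triangles are lower bounds where a gene had no count without DOX. Genes with no count in 1 group are otherwise left out, and Gm34059 and AW822073 stand far above the other neighbours.

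The genes upstream and downstream of DUX were taken from lists chosen with results of these data known, so their counts are no independent evidence. All 22 listed DUX targets of the 2-cell stage rose in each of the 6 lines, with median log2 effects, genes at 0 without DOX placed at their bound, of 10.27 in WT, 9.83 in DUXBL-KO, 8.12 and 11.33 in WT pLV2 lines 1 and 2, 9.23 in TRIM24-KO and 11.12 in TRIM33-KO. The median over all genes lay between -0.09 and -0.00. Members of the Zscan4, Usp17l and Tdpoz families are near-identical and uncertain one by one. Tmem92, a membrane protein gene without such copies in the list, averaged 0.42 CPM without and 237 CPM with DOX in WT pLV2 line 1.

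Of 5 reported activators of Dux, Dppa2 and Nelfa rose in all 6 lines, where 2.86% to 16.4% of all genes were called higher. Nelfa, a subunit of the negative elongation factor, rose by log2 2.07 in WT, 3.03 and 3.81 in WT pLV2 lines 1 and 2, 3.75 in TRIM24-KO and 4.26 in TRIM33-KO, and in DUXBL-KO it went from 66.6 to 433 CPM. Dppa2, a chromatin factor of early embryos, rose by 0.73 to 1.69. Smarca5, a chromatin remodeller, rose in TRIM33-KO only (0.27), and the differences between lines were not tested.

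Of 22 reported repressors, none was called in WT or DUXBL-KO, and 1 and 2 were with the replicate number as a block. In WT pLV2 line 1, line 2, TRIM24-KO and TRIM33-KO, 2, 2, 3 and 4 rose and 6, 8, 3 and 9 fell, where 9.96%, 12.7%, 11.4% and 16.4% of all genes were called higher and 6.12%, 13.8%, 4.88% and 20% lower. Trim28 and Setdb1, which act together in heterochromatin, rose by log2 0.24 to 0.50 and 0.22 to 0.25 in the pLV2 lines. Mga, part of a non-canonical Polycomb complex, fell by 0.33, 0.60, 0.34 and 0.79 in the same 4 lines, and Pias4, a SUMO ligase, also fell. Without TRIM24-KO with DOX replicate 2, 3 of these genes were called in TRIM24-KO instead of 6.

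In the pLV2 set the order of the lines in MERVL, a main target of DUX, differed from their order in Duxf3. In the first set with DOX the order was the same, with DUXBL-KO above WT in both. The internal sequence of MERVL averaged 35549 CPM in DUXBL-KO and 16451 in WT, and edgeR called neither difference. The pLV2 values follow. With DOX, internal sequence of MERVL (MERVL-int) averaged 82651 CPM in TRIM33-KO, 50961 in WT pLV2 line 2, 27967 in TRIM24-KO and 17996 in line 1, while Duxf3 was highest in line 1. Line 2 was above line 1 in MERVL-int (edgeR adjusted p over repeats = 5.57e-06) and below it in Duxf3, as given above. MERVL-int rose with DOX in every line, by log2 6.83 in WT and 7.39 in DUXBL-KO and by 7.06, 9.04, 7.88 and 9.49 in lines 1 and 2, TRIM24-KO and TRIM33-KO.

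**Figure D5:**
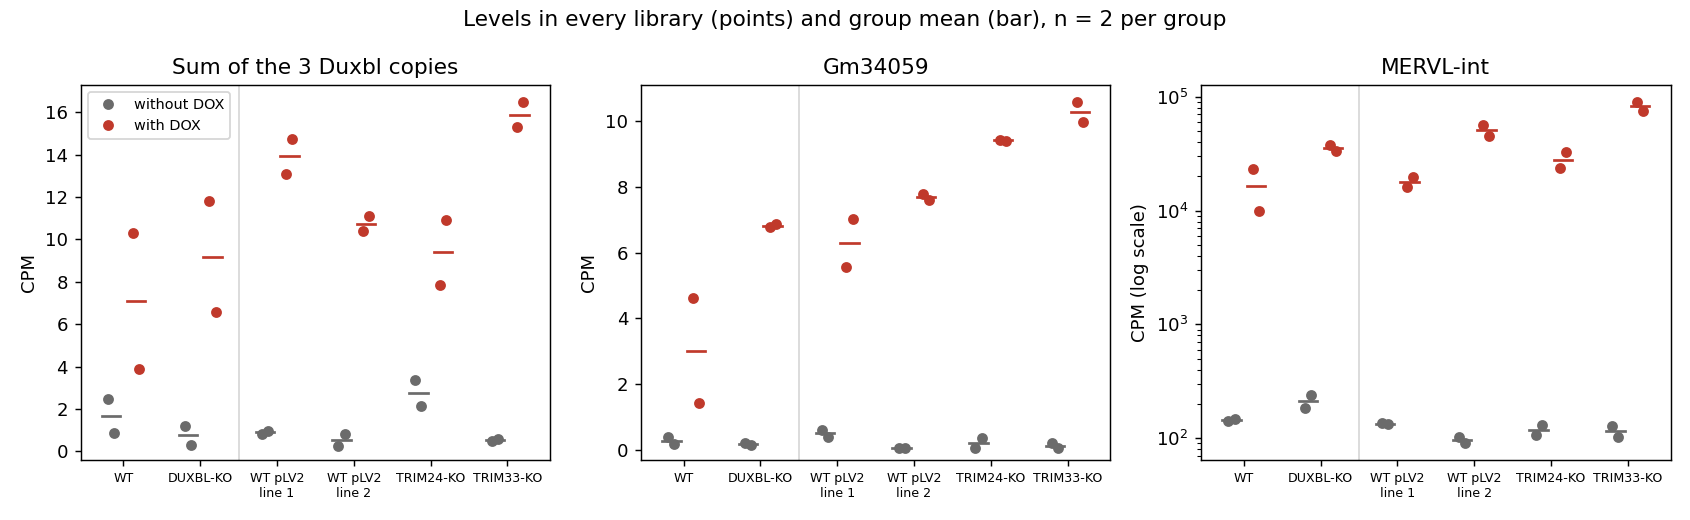
Level in CPM (y axis, log scale for MERVL-int) of the summed Duxbl copies, Gm34059 and MERVL-int in each library (points) by line (x axis), with a bar at the mean of 2 libraries. MERVL-int is lowest of the pLV2 lines in line 1 with DOX, at a mean of 17996 CPM, where the Duxbl sum is second highest.

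Genes with the most similar levels were ranked by Pearson r of log2 CPM over the 24 libraries, among 14443 genes. For Duxf3 they were Gm5590 (r = 0.988), Gm9343 (0.987), BC080696 (0.987), Gm21035 (0.987) and Gm11487 (0.986). For Duxbl1 they were Lgals4 (0.966), which encodes a galectin, G430049J08Rik (0.954), Nfam1 (0.953), Pclo (0.952) and Adcy2 (0.950), an adenylyl cyclase. The points share libraries and the DOX contrast. Within the 12 libraries with DOX, r fell to 0.836 to 0.901 for the first 5 and 0.714 to 0.882 for the latter 5.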

How the data were processed

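RNA was measured by rRNA-depleted, strand-specific sequencing (NEBNext Ultra II Directional, 75-base paired reads, NextSeq550), per the labels' protocols. The authors deposited raw counts per gene and repeat subfamily for each library. The submitters' processing notes name bcl2fastq 2.20.0, cutadapt 1.18, STAR 2.7.6a and mm10; the counting tool and its handling of multi-mapped reads are not given in the sources used here.

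Each set was fitted with edgeR 4.0.16 in R 4.3.3 (TMM on gene counts, filterByExpr by group, 1 mean per group, quasi-likelihood test, 2-sided), with Benjamini-Hochberg adjustment over the 18060 or 18079 genes tested and a threshold of 0.05. In the first set, deviations of same-numbered libraries from their group means correlated at 0.336 to 0.769 in all 6 pairs of groups, so the replicate number was taken to pair them there, from the data and not from the labels; blocked values stand beside each result whose call they change. CPM used the effective library size. DESeq2 1.42.0 and other filters, scalings, references and leave-outs were alternatives; list counts without TRIM24-KO or TRIM33-KO with DOX replicate 2 were added after seeing the data. Named genes were the 4 members, the tested neighbours, up to 4 genes per list called in the most lines, the 5 most alike genes for Duxf3 and Duxbl1, Trim24, Trim28, Trim33, and MERVL-int. The genes and lists were chosen with earlier results of these data known. Of 55487 identifiers, 54349 matched with version, 792 without, and 346 not at all.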

Additional observations from a re-analysis of the deposited data

Results flagged for a closer look

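Between TRIM24-KO and the WT pLV2 lines, the DOX effect itself differed by a test of the difference. The interaction was -2.37 for Duxbl1 and -2.44 for the summed Duxbl copies on the log2 scale, so that both rose less with DOX in TRIM24-KO. The levels behind it are a higher Duxbl sum without DOX (2.76 CPM, against 0.89 and 0.52) and a mean of 9.40 CPM with DOX, against 13.9 and 10.7. CT010467.1 took 30.4% of gene counts in 1 of the TRIM24-KO libraries with DOX, and without that gene in the library sizes the interaction was -2.43 for Duxbl1 and -2.50 for the sum. Neither call held under every setting tried: the highest adjusted p was 0.736 for Duxbl1 and 0.504 for the sum, both with all 24 libraries in 1 fit, and without TRIM24-KO lacking DOX replicate 1 they were 0.316 and 0.0689 (edgeR).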

How the results depend on the processing

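The limits are few replicates (2 per group), low counts (at most 110 for Duxf3, 33 for Duxbl3 and 12 for Duxbl2), and Duxbl copies whose reads can be told apart only in part. Among the results for the 4 genes and the Duxbl sum, 864 recomputed values kept their direction and side of the threshold, 37 lost the call, 26 gained it and 28 changed sign. Every DOX effect on Duxf3, Duxbl1 and the sum in the pLV2 lines kept its call under each alternative. The cause of the changes below was not tested, beyond what each alternative leaves out. Fitted values of Duxf3 depend on the prior count.

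In WT, Duxf3 lost its call with the compared groups alone (7.32) and without each replicate (7.23 to 7.53). Duxbl1 in WT was called with no filter (2.46), all 24 libraries in 1 fit (2.45) and DESeq2 (2.42), and the sum likewise (2.15, 2.14 and 2.12). In DUXBL-KO, Duxbl1 was called with no filter (3.74), all 24 libraries (3.72), DESeq2 (3.77) and the copies summed (3.59), while the sum lost its call with a mean of at least 10 counts (3.59), with the compared groups alone (3.60) and without each replicate (2.91 to 4.78). Leaving out replicates moved Duxbl3 from -0.29 to 2.27 in WT and from -2.15 to 1.63 in TRIM24-KO.

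For DUXBL-KO against WT with DOX, Duxf3 was called with no filter (1.63) and all 24 libraries (1.64). Without each replicate in turn, Duxbl1 ranged from -0.23 to 1.31 and the sum from -0.17 to 1.24 with DOX, Duxbl1 from -1.69 to 0.70 without DOX, and its interaction from -0.23 to 2.16.

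For TRIM24-KO with DOX, Duxf3 lost its call against line 2 alone (-0.43), and leave-outs gave -0.93 to -0.82. Duxbl1 was called with no filter (-0.50) and the compared groups alone (-0.49), and the sum against line 1 alone (-0.59). The Duxbl1 interaction lost its call against line 1 alone (-2.47), line 2 alone (-2.28), with the compared groups alone (-2.37) and with all 24 libraries (-2.43), and ranged from -2.93 to -1.74 over leave-outs. The interaction of the sum lost it with all 24 libraries (-2.49), and leave-outs gave -3.00 to -2.08.

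For TRIM33-KO with DOX, Duxf3 was -0.28 against line 1 alone, and with the compared groups alone Duxbl1 (0.38) and the sum (0.38) were called. Without DOX the sum was 0.13 against line 2 alone and ranged from -0.62 to 0.22 over leave-outs, and Duxbl1 from -1.04 to 0.18. For WT pLV2 line 2 against line 1, leave-outs moved Duxf3 with DOX from -0.99 to -0.79, Duxbl1 without DOX from -1.16 to 0.52, its interaction from -0.89 to 0.79, and the interaction of the sum from -0.22 to 1.47.

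Several differences in Duxbl3 between lines changed sign. Against line 1 alone, TRIM33-KO gave -1.38 without DOX, 0.19 with it and 1.57 for the interaction, and DESeq2 gave 0.0199 with DOX. Leave-outs ran from -2.62 to 2.25 without DOX, from -2.01 to 0.80 with it and from -3.28 to 2.54 for the interaction in TRIM33-KO. With DOX they ran from -2.09 to 1.68 in TRIM24-KO, from -0.76 to 1.80 for DUXBL-KO against WT and from -1.01 to 1.32 for line 2 against line 1. Without DOX, line 2 was called below line 1 with no filter (-5.29) and DESeq2 (-5.03).

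The number of genes called with DOX in WT, 538, became 1082 with no filter, 1 with the compared groups alone, 1198 with all 24 libraries and 2 to 641 over leave-outs. In DUXBL-KO, 889 became 1501, 1840 with all 24 libraries, and 488 to 575 over leave-outs. In WT pLV2 line 1, 2907 became 1834 with all 24 libraries and 1547 to 1898 over leave-outs. In line 2, 4788 became 2740 with the compared groups alone, 3108 with all 24 libraries and 2893 to 3975. In TRIM24-KO, 2942 became 1789 with the compared groups alone and 1938 to 2659, and in TRIM33-KO 6572 became 4360 to 5112 over leave-outs. Where a leave-out left 1 library in a group, that library was taken to vary like the other groups.

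In the pLV2 set the deviations of same-numbered libraries correlated above 0.1 in 6 of 28 pairs of groups, and the labels do not pair them. Between the groups without and with DOX of the same line, the correlation was 0.382 in line 2 and 0.180 in TRIM24-KO. It was 0.118 in TRIM33-KO and 0.0487 in line 1. In the first set, with the replicate number as a block, Duxbl1 was called in WT (2.45) and DUXBL-KO (3.79), as was the sum in WT (2.09), and the genes called rose to 929 in WT and 1536 in DUXBL-KO. The block changed no other call of the 4 genes or the sum, in either set. Median-of-ratios scaling changed the interaction calls of TRIM24-KO from 57 higher and 13 lower to 28 and 16, and no scaling moved the median of all genes by over 0.1.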

Other observations

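Some homeobox genes of the oocyte and early embryo were called with DOX in the pLV2 lines, in both directions, from a list chosen with results of these data known. Of 20 listed, 9 were tested; 4, 4, 3 and 4 rose and 1, 2, 1 and 2 fell in line 1, line 2, TRIM24-KO and TRIM33-KO, and none was called in WT or DUXBL-KO. Over all genes tested, 9.96% to 16.4% were called higher and 4.88% to 20% lower in the pLV2 lines. The median log2 effect of the 9 was 0.33, -0.16, -0.03 and 0.06 in the same order, against -0.09 to -0.00 for all genes. Without TRIM24-KO with DOX replicate 2, 1 of them was called in TRIM24-KO instead of 4, and with the replicate number as a block 2 were called in DUXBL-KO. Obox3 had 0 and 2 counts without and 40 and 41 with DOX in WT pLV2 line 1, and Obox6 averaged 1.04 and 6.18 CPM there. The Obox genes have close copies and are uncertain one by one. Otx2, a homeobox gene of the exit from naive pluripotency, fell in the same 4 lines, by 0.97 on the log2 scale in TRIM24-KO and by 1.10 in line 1. In WT pLV2 line 1 it went from 982 and 1074 counts to 421 and 417.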
